A study of Mus musculus with 6 samples.

Results

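In the early mouse hindlimb, 7 homeobox genes of the proximal limb were followed, Shox2, Prrx1, Prrx2, Meis1, Meis2, Irx3 and Irx5. They were taken as every probe set of the expression arrays whose platform annotation gave exactly 1 gene symbol, equal to one of these names. That gave 18 of the 45037 tested probe sets and 7 of the 18193 named genes. Shox2 had 2 probe sets, Prrx1 had 6, Meis1 had 3, Meis2 had 4, and Prrx2, Irx3 and Irx5 had 1 each, so probe sets of a gene share their target and are not replicates. The study compared 3 wild-type pools with 3 Lmx1b -/- pools (called Lmx1b-null here), both of the 129Sv strain at stage E11.5 of embryonic development. Each pool was 1 array and combined both hindlimb buds of 3 embryos, 6 buds in all, and only the proximal part of each bud, about 500 µm, was used. The labels give no allele beyond the null genotype and no sex, and the pooling hides differences between embryos.

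These genes encode transcription factors that bind DNA through a homeodomain. SHOX2 is needed for the bones nearest the trunk, the humerus and the femur, and is made in proximal limb mesenchyme. PRRX1 and PRRX2 are closely related paired-class factors found through most of the limb mesenchyme, and they shape the skeleton together. MEIS1 and MEIS2 belong to the TALE class, work with PBX partners, and mark the trunk side of the limb bud. Retinoic acid is thought to keep them on there. IRX3 and IRX5 are Iroquois factors encoded by neighbouring genes and are needed for the proximal and anterior hindlimb skeleton. LMX1B, a LIM homeodomain factor made in dorsal limb mesenchyme, is the gene removed here.

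Values are log2 RMA expression values, and every change is the null mean less the wild-type mean, also in log2 units, with its standard error (SE) and 95% interval from a limma fit of all tested probe sets and p-values adjusted over all of them. A change was called where the adjusted p was under 0.05. The labels were checked on Lmx1b itself, whose probe set 1441729_at read 8.02, 7.58 and 8.17 in wild-type pools and 4.62, 4.23 and 4.57 in null pools. The other Lmx1b probe set, 1421769_at, was dim and did not differ beyond its error, with means of 3.93 and 3.92 and a change of -0.01 (SE 0.08; interval -0.19 to 0.17). Markers of limb mesenchyme were present, with the hindlimb genes Tbx4 and Pitx1 at 10.49 and 10.27 in wild-type pools. Xist, the RNA of the inactive X chromosome in female cells, was low in wild-type pools 1 and 3 (4.68 and 4.72) and high in wild-type pool 2 (9.88) and in null pools 1 to 3 (9.66, 9.16 and 10.79). Xist therefore differed along with genotype, except in wild-type pool 2.

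Shox2 fell in Lmx1b-null hindlimbs, and the other 6 genes were not called. Both Shox2 probe sets passed, so 2 of the 18 probe sets were called (limma adjusted p under 0.05), against 0.0844% of all tested probe sets, and 0.0622% counting falls alone. Among the other 16 probe sets 0 passed, and 1 of them, of Meis2, had an unadjusted p under 0.05, against 9.41% of all probe sets. Changes of these 16 ran from -0.14 to 0.27, with a median of -0.02 against 0.01 over all probe sets. Their 95% intervals all lay between -0.35 and 0.44, so none of them reached the size of either Shox2 fall.

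**Figure D1:**
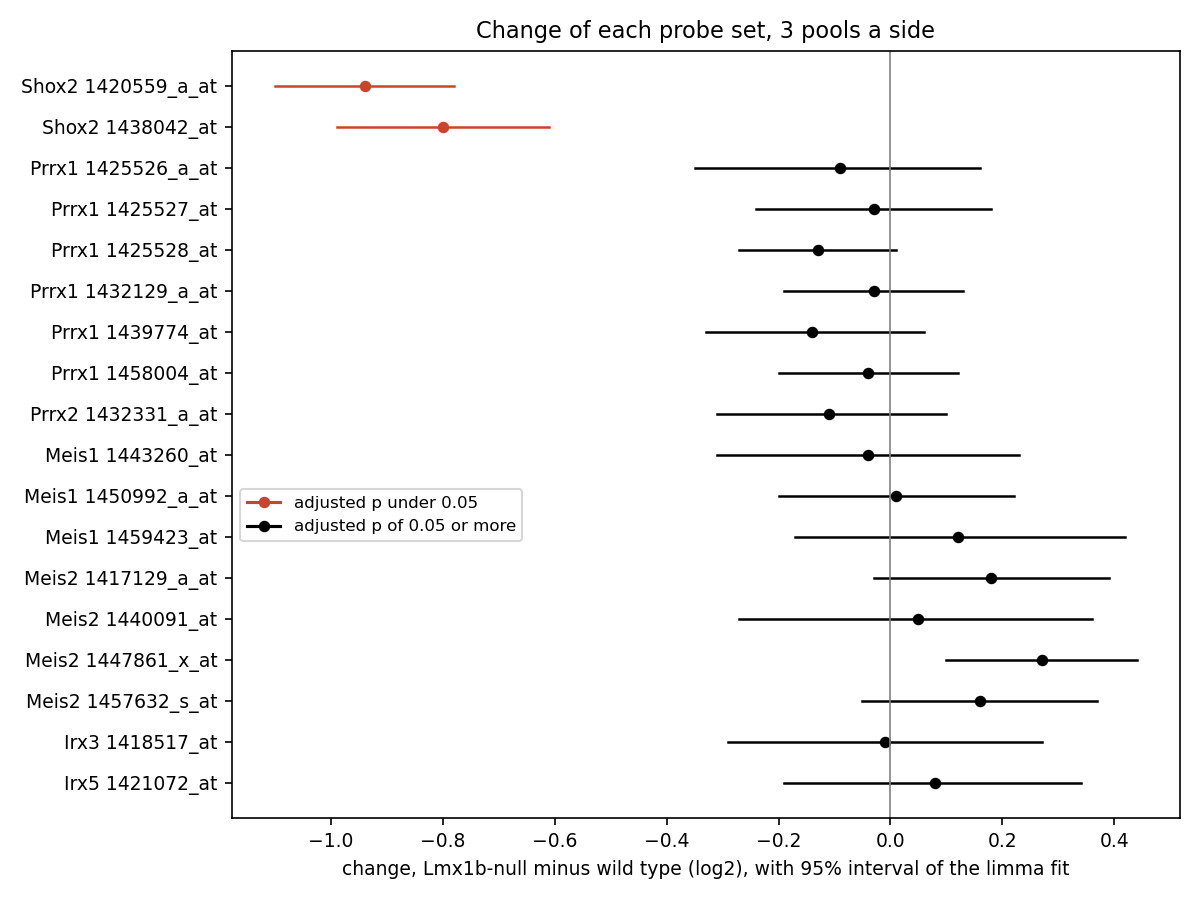
Change of each of the 18 probe sets, Lmx1b-null less wild type in log2 units, with the 95% interval of the limma fit (3 pools a side). The Shox2 probe sets lie at -0.94 and -0.80, and the other 16 lie between -0.14 and 0.27.

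Shox2 probe set 1420559_a_at read 9.70, 9.60 and 9.73 in wild-type pools 1 to 3. In null pools 1 to 3 it read 8.68, 8.73 and 8.79. Every null pool was lower than every wild-type pool, by far more than the spread within either group. The means were 9.67 ± 0.07 and 8.73 ± 0.06 (SD, n = 3 pools each), so the null pools held 52.1% of the wild-type level. The change was -0.94 (SE 0.07; 95% interval -1.10 to -0.78), or 1.92-fold lower (interval 1.72 to 2.14; limma adjusted p = 0.00424).

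The other Shox2 probe set, 1438042_at, read 11.44, 11.55 and 11.71 in wild-type pools and 10.82, 10.74 and 10.74 in null pools. The groups again did not overlap, and the null pools were tighter (SD 0.05) than the wild-type pools (SD 0.14). The change was -0.80 (SE 0.08; interval -0.99 to -0.61), or 1.74-fold lower, to 57.4% of the wild-type level (limma adjusted p = 0.0238). The fall in 1420559_a_at was larger by 0.14 on the log2 scale, which an exact two-sided permutation test did not separate from the spread between pools (p = 0.3, smallest possible 0.1). The arrays read RNA from whole tissue, so fewer cells making Shox2 and less Shox2 RNA per cell cannot be told apart.

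The RefSeq promoter of Shox2, the gene whose level fell, is shown with those of Prrx1 and Meis2, which were not called. Each runs from 250 bases before to 50 bases after the gene's start in GRCm38.p6, 5′ to 3′ on the strand of the gene. Shox2 is at chr3:66981722-66982021, Prrx1 at chr1:163313601-163313900 and Meis2 at chr2:116064570-116064869, all on the minus strand. Capitals mark matches on either strand to TAATTA, an AT-rich core bound by many homeodomain proteins, to TGACAG, a core bound by MEIS proteins, and to TATAAA, the TATA box. These motifs do not overlap one another here.
Shox2: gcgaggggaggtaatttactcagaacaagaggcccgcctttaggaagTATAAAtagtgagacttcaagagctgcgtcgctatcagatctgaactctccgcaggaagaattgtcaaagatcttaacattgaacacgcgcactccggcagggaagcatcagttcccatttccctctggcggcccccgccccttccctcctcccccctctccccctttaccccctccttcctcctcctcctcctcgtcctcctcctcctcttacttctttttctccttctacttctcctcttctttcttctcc
Prrx1: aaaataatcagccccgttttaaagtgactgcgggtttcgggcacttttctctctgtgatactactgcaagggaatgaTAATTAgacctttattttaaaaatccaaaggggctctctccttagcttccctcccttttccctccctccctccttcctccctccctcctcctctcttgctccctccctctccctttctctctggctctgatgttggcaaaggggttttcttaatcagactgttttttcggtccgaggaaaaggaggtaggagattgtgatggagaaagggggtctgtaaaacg
Meis2: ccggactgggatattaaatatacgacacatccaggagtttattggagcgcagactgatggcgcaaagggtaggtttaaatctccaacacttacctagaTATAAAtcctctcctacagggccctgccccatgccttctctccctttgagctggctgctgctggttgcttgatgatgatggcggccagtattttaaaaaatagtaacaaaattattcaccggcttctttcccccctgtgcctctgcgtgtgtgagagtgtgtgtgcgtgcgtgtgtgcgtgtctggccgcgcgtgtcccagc

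Shox2 held a TATAAA 203 bases before its start and Meis2 held one 152 bases before. Whether either works as a TATA box was not tested. TATAAA was present in 13.6% of 32851 promoters of this length. Prrx1 held a TAATTA 173 bases before its start, a motif found in 5.29% of promoters. Promoters of 6 of the 7 genes were matched, all but Irx5. TAATTA was in 1 of the 6, TATAAA in 2, and TGACAG, found in 19.2% of all promoters, in 0. The promoter of Shox2 was 53.3% GC with 11 CpG sites, that of Prrx1 47.7% with 6 and that of Prrx2 70.3% with 28, against medians of 52.7% and 7 over all promoters. No binding was measured, so these matches only describe the sequence.

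**Figure D2:**
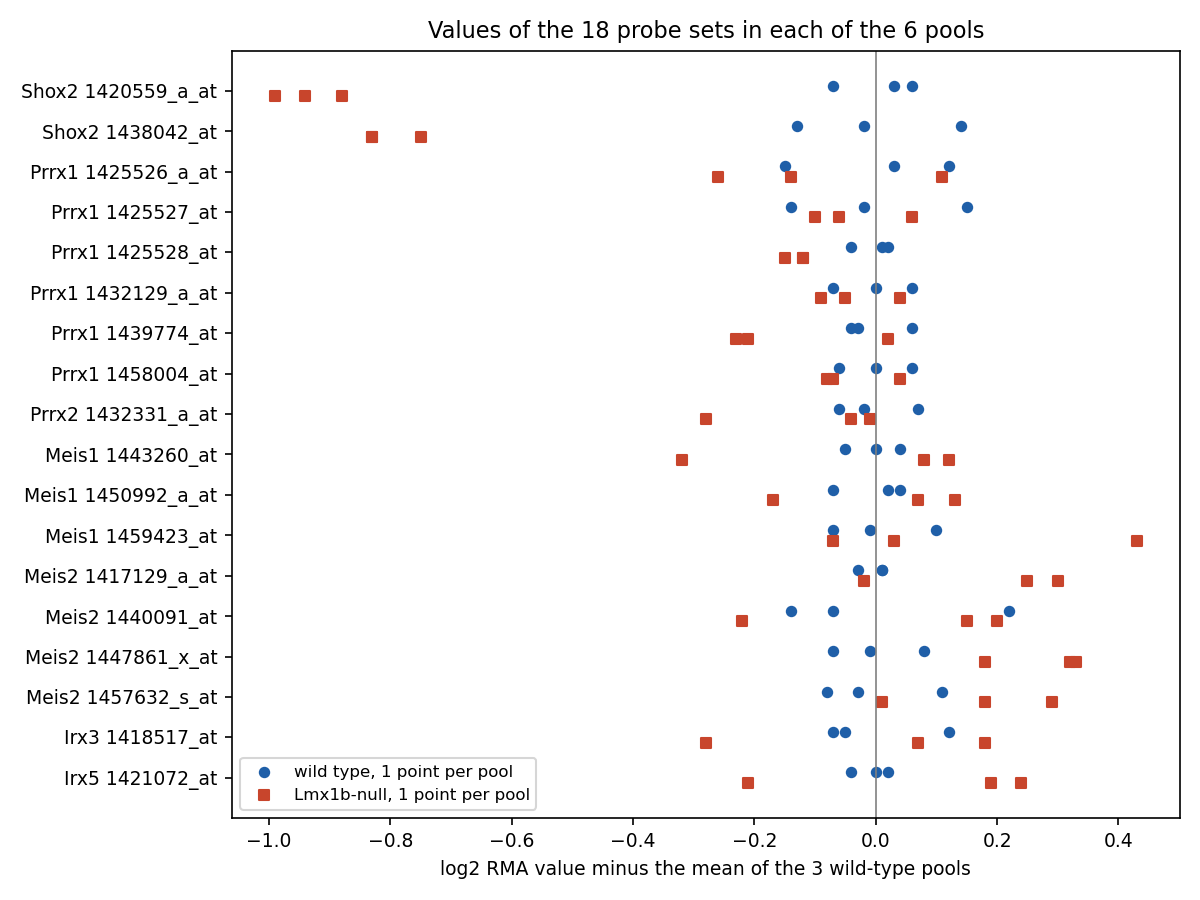
Log2 RMA value of each probe set in each pool, less the mean of the 3 wild-type pools (circles, wild type; squares, Lmx1b-null). The null pools stand apart below the wild-type pools in both Shox2 probe sets, and overlap them in 14 of the other 16. The groups did not overlap in 14.4% of all probe sets.

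Wild-type pool 2, the wild-type pool with high Xist, had Shox2 values among those of the other wild-type pools or close to them. It exceeded the highest null pool by 0.81 in 1420559_a_at and by 0.73 in 1438042_at. Once Xist was added to the fit as a covariate, the changes were -0.88 and -0.79, but neither passed (limma adjusted p = 0.113 and 0.258, over ranges of 0.000319 to 0.151 and 0.00181 to 0.258 across alternatives). Setting wild-type pool 2 alone against the null pools gave -0.87 and -0.79 (adjusted p = 0.151 and 0.185). The call for 1438042_at was also lost on leaving out wild-type pool 2 (0.109), wild-type pool 3 (0.0587), null pool 1 (0.115), null pool 2 (0.0954) or null pool 3 (0.114). That for 1420559_a_at held without any single pool (0.0155 to 0.0423).

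**Figure D3:**
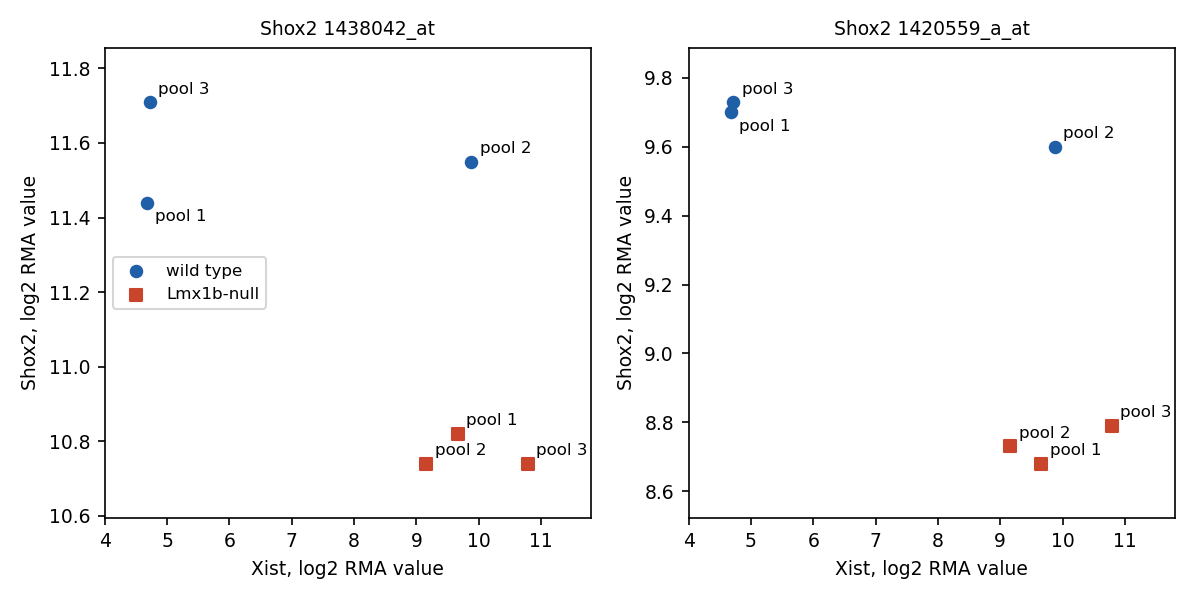
Shox2 (vertical axis, log2 RMA value) against Xist (horizontal axis, log2 RMA value, probe set 1436936_s_at) in the 6 pools, 1 panel per Shox2 probe set. Wild-type pool 2 has as much Xist as the null pools (9.88) and lies 0.73 and 0.81 above the highest of them in Shox2.

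Whether Shox2 changed differently from each of the other 6 genes was tested on the log2 difference between their brightest probe sets within each pool. Shox2 minus Prrx1 was 0.21, 0.34 and 0.55 in wild-type pools and -0.26, -0.34 and -0.30 in null pools. Every null pool was below every wild-type pool, and the same held for the other 5 genes. All 6 comparisons used the same Shox2 values, those of 1438042_at, already called, so they are not independent of one another. Relative to Prrx1, Shox2 changed by -0.67, relative to Prrx2 by -0.69, relative to Irx3 by -0.79, relative to Meis1 by -0.81, relative to Irx5 by -0.88 and relative to Meis2 by -0.98. Each of the 6 exact two-sided permutation tests gave p = 0.1 (0.1 after Benjamini-Hochberg adjustment over the 6), the smallest that 3 pools against 3 allow, so this design cannot reach 0.05.

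The Prrx genes lay slightly lower in null pools, within the error. The brightest Prrx1 probe set, 1425528_at, read 11.22, 11.21 and 11.16 in wild-type pools and 11.08, 11.08 and 11.05 in null pools. The groups did not overlap, as in 14.4% of all probe sets, but the change was only -0.13 (SE 0.06; interval -0.27 to 0.01; limma adjusted p = 0.563). All 6 Prrx1 probe sets had changes below 0, from -0.14 to -0.03, and adjusted p from 0.563 to 0.945. For 2 of them, 1425527_at and 1432129_a_at, the sign turned with Xist as a covariate (0.12 and 0.04). One, 1458004_at, read 2.25 to 2.39, under the lower quartile of every array (3.31 to 3.36), and is too dim to show a change.

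Prrx2, read by 1432331_a_at, stood at 9.47, 9.34 and 9.38 in wild-type pools and at 9.36, 9.39 and 9.12 in null pools. Null pools 1 and 2 lay within the wild-type range and null pool 3 below it. The change was -0.11 (SE 0.09; interval -0.31 to 0.10; limma adjusted p = 0.743). That interval allows a fall of at most 1.24-fold.

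No Meis probe set was called. Meis2 lay higher in null pools in all 4 of its probe sets, none called, with changes of 0.05 to 0.27. In 1447861_x_at it read 7.71, 7.62 and 7.56 in wild-type pools and 7.95, 7.81 and 7.96 in null pools. The groups did not overlap, as in 14.4% of all probe sets. The change in this probe set was the largest of Meis2, at 0.27 (SE 0.07; interval 0.10 to 0.44; limma unadjusted p = 0.00585, adjusted p = 0.325). The _x_at suffix marks a probe set that may also bind other transcripts.

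The brightest Meis2 probe set, 1417129_a_at, read 9.57, 9.53 and 9.57 in wild-type pools and 9.86, 9.54 and 9.81 in null pools. Null pools 1 and 3 stood above all wild-type pools and null pool 2 among them. The change was 0.18 (SE 0.09; interval -0.03 to 0.39; limma adjusted p = 0.584). The other probe sets, 1457632_s_at and 1440091_at, changed by 0.16 and 0.05.

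Meis1 was close to level between the groups. Its brightest probe set, 1450992_a_at, read 8.92, 8.90 and 8.81 in wild-type pools and 9.01, 8.71 and 8.95 in null pools. The change was 0.01 (SE 0.09; interval -0.20 to 0.22; limma adjusted p = 0.976), and it turned to just below 0, at 0.00, once arrays were centred on their medians. The other Meis1 probe sets changed by -0.04 (1443260_at) and 0.12 (1459423_at).

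The Iroquois genes were not called either. Irx3, read by 1418517_at, stood at 9.72, 9.53 and 9.55 in wild-type pools and at 9.78, 9.32 and 9.67 in null pools. Null pools included both the highest and the lowest value, and the change was -0.01 (SE 0.12; interval -0.29 to 0.27; limma adjusted p = 0.984). Irx5, read by 1421072_at, stood at 7.97, 8.01 and 8.03 in wild-type pools and at 8.20, 7.80 and 8.25 in null pools. Its wild-type pools were tight (SD 0.03) and its null pools spread (SD 0.24), with a change of 0.08 (SE 0.12; interval -0.19 to 0.34; adjusted p = 0.879).

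Null pool 2 read lower than the other null pools for the Meis and Irx genes, though not always lower than wild type. In Meis2 it was among the wild-type pools in 1417129_a_at (9.54 against 9.53 to 9.57). In Meis2 1447861_x_at it was above them all (7.81 against 7.56 to 7.71). In all 9 of their probe sets it was the lowest null pool, as it was in 34.4% of all probe sets, and in 5 of the 9 the lowest of the 6 pools, against 14.3%. It lay below the mean of null pools 1 and 3 by 0.42 in Irx5, by 0.40 in Irx3, by 0.27 to 0.42 in Meis1 and by 0.14 to 0.40 in Meis2. Only 0.957% of all probe sets lay further below in this pool than Irx5, and 1.17% further than Irx3. The Prrx genes did not follow: null pool 2 was the lowest null pool in 0 of their 7 probe sets and the highest in 4. Shox2 did not follow either, with differences of -0.01 and -0.05.

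Genes of the middle and distal limb mostly read high in that pool. Of 17 measured, null pool 2 was the highest null pool in 15, against 31.1% of all genes, and 0 had it lowest. Hoxd13, a gene of the future foot, read 7.72, 8.28 and 7.94 in null pools 1 to 3. Sall3 read 6.30, 6.82 and 6.01, and Hoxa13 read 5.07, 5.53 and 4.95. Their list score, the mean over the list of each gene's value less its own mean over the 6 pools, was -0.08 to 0.06 in wild-type pools, 0.23 in null pool 2, and -0.02 and -0.13 in null pools 1 and 3. The 12 other proximal limb factors did not read low together there: null pool 2 was the highest null pool in 7 and the lowest in 5, and their list score was -0.09 in null pool 2 against -0.05 and -0.06 in null pools 1 and 3. The part of these lists in the Meis and Irx values was not tested, and the tissue's cut position is not in the labels beyond the stated length. These genes were set beside each other after their values were seen.

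**Figure D4:**
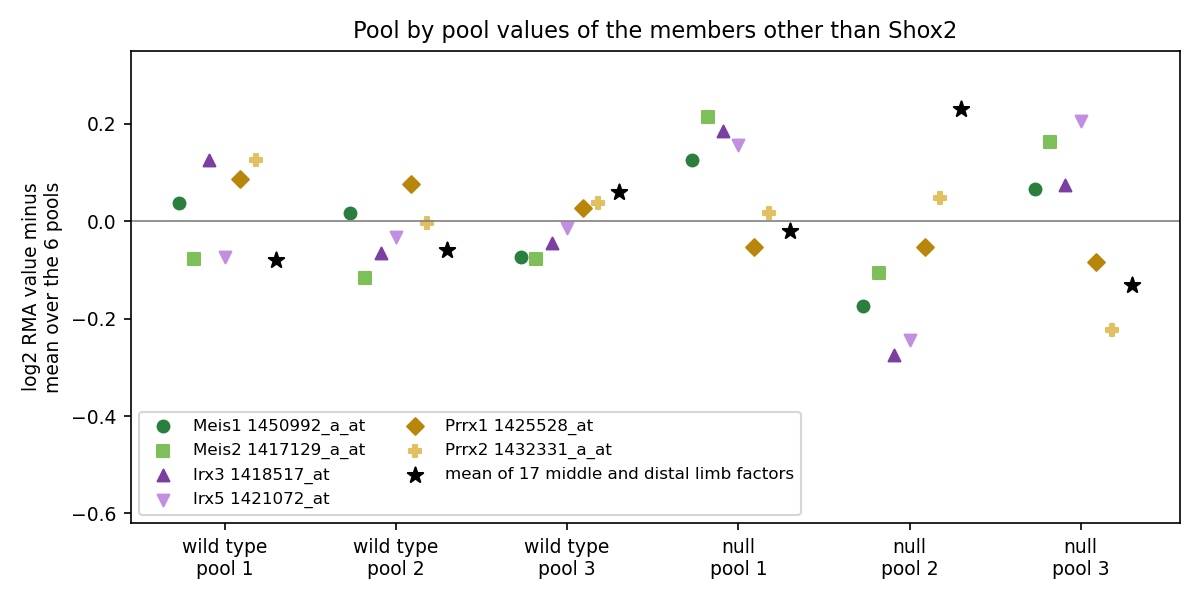
Log2 RMA value of the brightest probe set of each gene other than Shox2 in each pool, less its mean over the 6 pools; the star is the list score of 17 middle and distal limb factors. In null pool 2 the Meis and Irx points lie below 0 while the star is at 0.23. The Meis2 points of the wild-type pools also lie below 0.

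Without null pool 2, Irx5 changed by 0.22, Irx3 by 0.12, Meis1 1450992_a_at by 0.10 and Meis2 1417129_a_at by 0.28. None of these passed (limma adjusted p = 0.470, 0.705, 0.698 and 0.392). Over all alternatives, 0 of the 16 probe sets other than those of Shox2 passed.

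The chromosomal neighbours of the 7 genes were read next, taking the nearest 2 measured genes on either side in a RefSeq gene table. Of 25 such genes, 0 passed in the fit of 1 probe set per gene (limma adjusted p from 0.186 upward; background 0.104% of genes). Their changes ran from -0.82 to 0.22. The most negative was that of Ptx3, the pentraxin gene on one side of Shox2 on chromosome 3, at -0.82 (SE 0.16; adjusted p = 0.186). Rsrc1 and Mlf1, on its other side, were at -0.15 and -0.26, and Veph1 at -0.15. On chromosome 8, Irx6 and Crnde, the Iroquois gene and the long noncoding RNA gene that flank Irx5, changed by 0.21 and -0.25, and Fto, next to Irx3, by 0.01. G630016G05Rik, beside Meis2, was at 0.19.

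The genes whose pool pattern was most like that of Shox2 were sought among 18192 others, as the smallest root mean square difference from 1438042_at after each gene was centred on its mean over the 6 arrays. Cadps2, a regulator of vesicle release, was nearest at 0.0832, with 4.51, 4.79 and 4.85 in wild-type pools and 3.83, 3.76 and 3.93 in null pools. Nrp2, a semaphorin receptor, followed at 0.101, with 9.29, 9.46 and 9.73 against 8.68, 8.87 and 8.77. Next were the acetylcholine receptor gene Chrna7 (0.107), the lipocalin gene Apod (0.108) and Osbpl3 (0.111), an oxysterol-binding protein gene. Since they were picked for matching a gene that fell, their own changes of -0.88, -0.72, -0.64, -0.64 and -0.69 follow from the choice. Set against 1420559_a_at instead, the nearest 5 were Cadps2, Fam181b, Epha7, Taf15 and Ppargc1a (0.127 to 0.157). Only Cadps2 was among the nearest 5 of both probe sets, so which other names enter the 5 depends on the probe set chosen. Of the 6 other members, Prrx1 was nearest to 1438042_at, at 0.352 and place 1313, and Meis2 furthest, at 0.503 and place 16528.

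Related genes were read from 8 lists, at 1 probe set per gene. Of 89 measured genes 0 passed (limma), while 23, or 25.8%, had an unadjusted p under 0.05, against 9.8% of all genes. The smallest adjusted p was 0.0922. The lists were chosen with earlier results of these data known, so that share is not independent evidence.

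Among 9 TALE homeobox genes, the class of Meis, 0 passed and 7 had changes above 0, with a median of 0.08 against 0.02 over all genes. The PBX partners Pbx2 and Pbx3 were at -0.02 and 0.05, and the smallest p was that of Mkx, a tendon regulator (-0.48; limma adjusted p = 0.28). Meis3 had the pool pattern of Meis1 and Meis2, with 6.32, 5.92 and 6.24 in null pools. The list did not share it: of the 9 genes, null pool 2 was the highest null pool in 4 and the lowest in 3. The 4 other Iroquois genes all lay above 0 with a median of 0.22, led by Irx2 at 0.28 (adjusted p = 0.467). Among 9 further paired-class genes, Alx1 had the smallest p (-0.24; adjusted p = 0.425), near the lower quartile at 3.33 to 3.75, and Pitx1, the hindlimb selector, was at -0.15.

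Of 10 skeletal genes studied together with Shox2, 0 passed. Runx3, an osteochondral factor, was at 0.22, Sox9 at -0.19 and Bmp4 at -0.28, and Sox5, a cartilage factor, had the smallest p (-0.30; limma adjusted p = 0.314). Of 12 other proximal limb factors 0 passed, and 7 lay below 0 and 5 above. An unadjusted p under 0.05 (limma) was found for 5 of the 12, against 9.8% of all genes. Emx2, needed for the shoulder blade, had the largest change of them, from 7.60, 8.12 and 7.80 in wild-type pools to 7.0, 6.61 and 7.0 in null pools. Its change was -0.97 (SE 0.15; adjusted p = 0.0922). Tbx18 was at -0.40 (adjusted p = 0.158), Tbx4 at -0.29, Zbtb16 at -0.26, Hoxa10 at 0.20 and Hoxa9 at 0.11. The list score of these 12 genes did not overlap between the groups, at 0.03 to 0.12 in wild-type pools and -0.09 to -0.05 in null pools.

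Retinoic acid, which is thought to keep Meis genes on in the proximal limb, was represented by 16 genes, of which 0 passed. The receptor gene Rarb read 7.17, 7.03 and 6.70 in wild-type pools and 6.20, 5.98 and 6.25 in null pools, a change of -0.83 (SE 0.13; limma adjusted p = 0.0922). Aldh1a2, which makes retinoic acid, was at -0.37 (adjusted p = 0.36), and Cyp26b1, which breaks it down, at -0.02. Emx2 and Rarb passed with array weights (0.0484 and 0.0467) or with an intensity trend in the fit (0.0433 and 0.0477), the latter also calling Tbx18 (0.0477). Of 12 FGF pathway genes, which were ligands of the apical ridge, the mesenchymal ligand gene Fgf10, receptors and response genes, 0 passed and 11 lay above 0, with Fgf9 at 0.45 (adjusted p = 0.102). Of the 17 middle and distal factors 0 passed, and Dlx5 (0.92; adjusted p = 0.222) had the smallest p.

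Of the marker lists of other cell types, the chondrogenic, endothelial, muscle precursor and somite and flank scores did not overlap between the groups, and the others did. For single probe sets, the groups did not overlap in 14.4%. Scores of the other proximal limb factors and of the FGF pathway genes did not overlap either. The FGF score was -0.18 to 0.02 in wild-type pools and 0.07 to 0.09 in null pools. No list was tested. The list score of 6 chondrogenic markers was 0.08 to 0.32 in wild-type pools and -0.30 to -0.20 in null pools, and 1 of them, Cnmd, a cartilage glycoprotein gene, fell (-1.76; limma adjusted p = 0.0354 over genes). Hapln1, a cartilage link protein gene, was at -0.76 (adjusted p = 0.102 over genes), while Col2a1, Acan, Matn1 and Sox9 were at 0.01, -0.05, -0.09 and -0.19, so the score rested mostly on Cnmd and Hapln1. The score of 7 endothelial markers was -0.01 to 0.18 and -0.14 to -0.09, with Tek at -0.65 and the others between -0.22 and -0.06. Scores were higher in null pools for 8 muscle precursor markers (-0.37 to -0.02 against 0.06 to 0.22) and for 6 somite and flank markers (-0.26 to -0.10 against 0.12 to 0.23). Of the muscle precursor markers, Msc, Myod1, Pax7, Myog and Lbx1 were at 0.78, 0.51, 0.46, 0.44 and 0.32. Pax3, Met and Myf5 were close to level, at 0.0, -0.01 and 0.02. Of the somite and flank markers, Pax9 and Meox1 were at 1.02 and 0.50, and the others between 0.01 and 0.25. For 8 limb mesenchyme markers the scores overlapped, at -0.06 to 0.10 and -0.04 to 0.05. Neuronal markers included 3 of 8 under the lower quartile, Sox2, Olig2 and Foxa2, and the list overlapped between groups (-0.12 to 0.02 and -0.03 to 0.09). Ectoderm (10 of 10 measured), neural crest (3 of 5), erythroid (4 of 5) and macrophage (5 of 5) lists also overlapped. The part of these cell types in the fall of Shox2, or in the Meis2 values, whose changes were not called, was not tested.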

How the data were processed

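Each array has 1 value per probe set that the authors computed by RMA, per the submitters' processing notes. RMA corrects background, quantile-normalizes arrays and summarises probes, so a shift of most transcripts would be hidden. The RMA version was not given in the sources used here. No label states a log base. From their range, about 2 to 14, the values the authors deposited were read as log2. Of 45101 probe sets, 64 controls were left out. Gene symbols are those of the array platform annotation, with 34945 probe sets having 1 symbol, 932 several and 9160 unnamed here.

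All tested probe sets were fitted with limma 3.58.1 in R 4.3.3 (lmFit, eBayes without trend or robust option), two-sided, with Benjamini-Hochberg adjustment and a threshold of 0.05. Gene-level fits used the probe set with the highest mean. Scripts were tested on simulated data. Members, lists and alternatives were chosen with earlier results of these data known. Named by rule were all member and Lmx1b probe sets, the list gene with the smallest p or past the threshold, neighbours, and the 5 genes most like Shox2; other named list and marker genes were chosen after their values were seen. Pools were treated as biological replicates; 6 arrays limit the precision. Deviations from the group means correlated at -0.239, -0.088 and -0.168 between pools of the same number, so numbers do not pair pools. Alternatives covered normalization, variance model, filters, single pools and Xist. The promoters are RefSeq's (GRCm38.p6); gene positions were used only for neighbour order.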

Additional observations from a re-analysis of the deposited data

How the results depend on the processing

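The 2 Shox2 probe sets kept their direction under every alternative, between -0.98 and -0.87 for 1420559_a_at and between -0.87 and -0.73 for 1438042_at. Causes of the differences were not tested. With the replicate block, 1438042_at changed by -0.80 and was no longer called (limma adjusted p = 0.109), 1420559_a_at still was, and 14 probe sets in all were called, 12 of them among the 38 called without it; the pool numbers share no more than a name. With Xist as a covariate the Shox2 changes were -0.88 and -0.79, and with wild-type pool 2 alone against the null pools, chosen after seeing the data and assuming that the lone pool varies like the null pools, -0.87 and -0.79, none called; 0 member probe sets and 9 and 10 of all probe sets passed in these fits. The count of member probe sets called was 1 with the block, and 1 to 2 with 1 pool left out. With 1 probe set per gene it was 1 of 7, since only 1438042_at then stands for Shox2. That probe set was still called (limma adjusted p = 0.0177). All probe sets called were 38 (0.0844% of 45037), and 94 with an intensity trend, 69 with array weights and 99 at an adjusted p under 0.1. There were 20 among those with a mean of at least 5, and 13 to 38 with 1 pool left out. At 1 probe set per gene 19 were called, or 0.104% of 18193. List genes called were 0, but 3 with an intensity trend, 2 with array weights and 2 at an adjusted p under 0.1.

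Signs turned only for changes that were not called. With array weights, Prrx1 1425527_at was at 0.01 and Irx3 at 0.02. With the Xist level, Prrx1 1425527_at was at 0.12, Prrx1 1432129_a_at at 0.04, Meis1 1450992_a_at at -0.03 and Irx3 at 0.01. With wild-type pool 2 alone these were at 0.11, 0.04, -0.01 and 0.06, and Meis1 1443260_at at 0.01. After median centring, Meis1 1450992_a_at was at 0.00. With 1 pool left out, Shox2 1438042_at ranged from -0.87 to -0.73, Prrx1 1425527_at from -0.10 to 0.05, Prrx1 1432129_a_at from -0.07 to 0.00, Meis1 from -0.12 to 0.10 in 1443260_at, from -0.05 to 0.10 in 1450992_a_at and from -0.03 to 0.23 in 1459423_at, Meis2 1440091_at from -0.03 to 0.18, Irx3 from -0.11 to 0.12 and Irx5 from -0.01 to 0.22. The difference between Shox2 and each other gene stayed between -1.10 and -0.58. Over all probe sets the median change moved from 0.01 to 0.00 on centring and remained 0.01 on renormalizing. The alternative of 1 probe set per gene gave no separate value for the lists, which already used it.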
